A study of Homo sapiens with 6 samples.

Results

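A set of 6 genes known from the nervous system was followed in A375 melanoma cells that overexpress cytoglobin (CYGB), a haem-containing globin. They are UTS2 and NTS, which encode peptide hormone precursors, NPTX2, which encodes a secreted synaptic protein, NEFL, a neurofilament gene, SLITRK6, a membrane receptor gene, and VAT1L, a relative of the synaptic vesicle gene VAT1. They were selected by gene name, 6 of the 2778 features of the count table, and the names were themselves chosen by their higher counts in the overexpressing libraries of this table. Their values between the groups are therefore given as a description, with no test.

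The study compared poly(A) RNA from 3 wild-type (WT) libraries with 3 libraries of cells overexpressing CYGB (CYGB-OE). A375 is an established human melanoma line, all 6 libraries came from that line, and none was treated. The labels name no empty vector control for the WT cells, and they do not give the promoter of the CYGB construct or whether the CYGB-OE cells are 1 clone. Separate cultures are not named for the replicates, and p-values therefore reflect only how these 6 libraries scatter, which may be technical.

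Melanocytes arise from the neural crest, the embryonic tissue that also forms peripheral neurons and Schwann cells, and melanoma cells can transcribe genes better known from neurons. Neuropeptides are cut from larger precursors in the secretory pathway and act on receptors of nearby or distant cells. Neuronal pentraxins, neurofilaments and SLITRK receptors belong to later steps of neuronal life, namely synapse formation, axon calibre and neurite growth.

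The counts in the table summed to between 1533260 and 2801576 per library. These sums are not sequencing depths, because the table holds a selection of features. With counts scaled inside each group, CYGB-OE over WT ratios were missing from -0.65 to 1.34 on the log2 scale, a width of 1.99, and the middle of that empty stretch was taken as no change between groups. On that scale, CYGB itself had 37.6 ± 1.56 normalised counts in WT and 23684 ± 460 in CYGB-OE (SD, n = 3 libraries each), so the libraries carried what their labels say. CYGB-OE replicate 1 stood apart from its group: the median absolute log2 deviation from the mean of the other 2 libraries was 0.436, against 0.289 and 0.292 for replicates 2 and 3 and 0.152 to 0.159 in WT. The reference mean for replicates 2 and 3 includes replicate 1, so their deviations do not measure the scatter between those replicates. Between pairs of libraries, the chi-square per degree of freedom was 3.997 for CYGB-OE replicates 2 and 3. It was 35.34 and 38.97 for the pairs with CYGB-OE replicate 1, and 4.801 to 8.974 for the WT pairs. Values of the 6 genes that rest on CYGB-OE replicate 1 are given with and without that library.

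All 6 genes had more normalised counts in every CYGB-OE library than in any WT library, which was also true of 28.3% of all features. In the edgeR quasi-likelihood fit with Benjamini-Hochberg adjustment over 2468 features, 28.9% were called higher at an adjusted p under 0.05 and 70.9% were called lower, with a median log2 fold change of -1.29. Nothing is read from the members' count against these shares, since the same contrast selected the genes. The groups did not overlap, in either direction, in 2732 of the 2778 features. Nearly every tested feature was thus called, so a call or adjusted p of any gene below adds little to its presence in the table. In bulk RNA, more cells expressing a gene and more RNA of it per cell cannot be told apart.

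**Figure D1:**
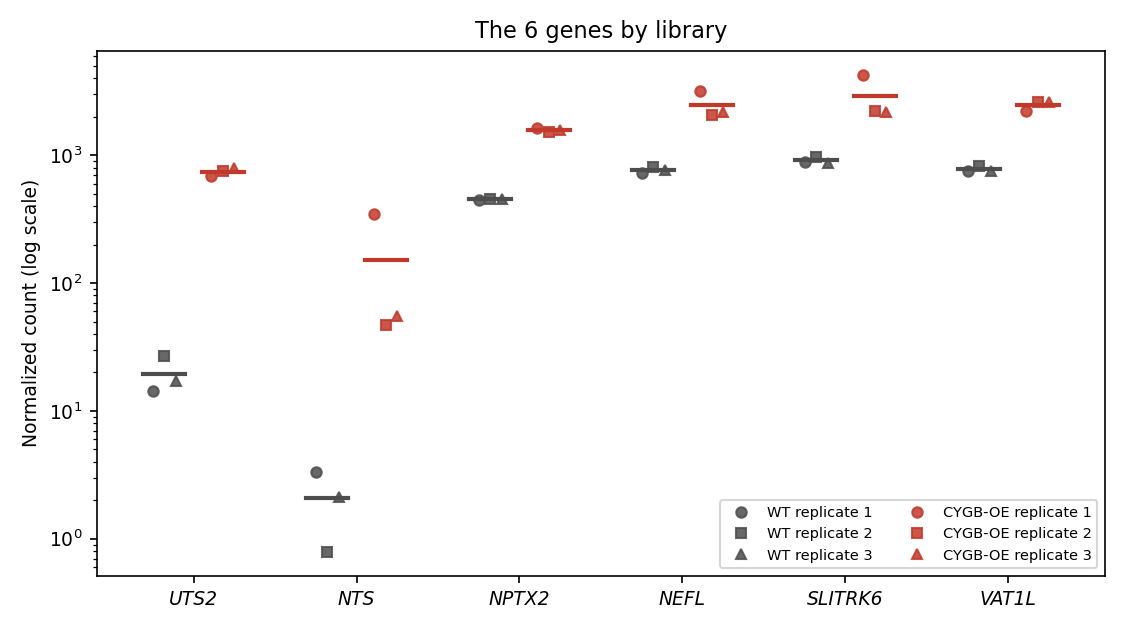
Normalised counts of the 6 genes in each library on a log axis, with 1 point per library, WT in grey and CYGB-OE in red, and a bar at each group mean. Every CYGB-OE point lies above every WT point of the same gene, and the CYGB-OE points of NTS spread from 46.9 to 349.

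UTS2 encodes the precursor of urotensin II, a cyclic peptide known for constricting blood vessels and found in motor neurons of the spinal cord. UTS2 (ENSG00000049247, protein coding) lies on the minus strand at chr1:7843083-7853512 in GRCh38. It had 13, 34 and 16 reads in WT replicates 1 to 3 and 647, 672 and 874 in the CYGB-OE replicates. Normalised counts were 14.3, 26.9 and 17.0 in WT and 690, 750 and 794 in CYGB-OE. WT replicate 2 was the highest of a low group, and the 3 CYGB-OE libraries lay close together, with a coefficient of variation of 7.02%. The group means were 19.4 ± 6.62 and 745 ± 52.3 (SD, n = 3), a ratio of 38.4, and the lowest CYGB-OE library was 25.7 times the highest WT library. The fitted log2 fold change was 5.22 (SE 0.22), which ranked 11 among the 713 features called higher. Without WT replicate 2 it was 5.56. The last exonic part of UTS2 overlaps PER3, a circadian clock gene on the opposite strand, over 868 exonic bases or 48.5% of the exonic length of UTS2. Whether counting used the strand is not stated in the sources at hand, so reads from that overlap cannot be told apart between the genes. PER3 itself was not among the features analysed here.

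NTS encodes the precursor of neurotensin and neuromedin N, peptides made in the hypothalamus and in endocrine cells of the gut. NTS (ENSG00000133636, protein coding) lies on the plus strand at chr12:85874295-85882992. Its reads were 3, 1 and 2 in WT and 327, 42 and 61 in CYGB-OE. That gave 3.30, 0.79 and 2.13 normalised counts in WT and 349, 46.9 and 55.4 in CYGB-OE. The WT libraries were near the limit of detection, and CYGB-OE replicate 1 held 6.82 times the mean of the other 2 CYGB-OE libraries. The lowest CYGB-OE library was still 14.2 times the highest WT library, so the groups did not overlap. The means were 2.07 ± 1.26 and 150 ± 172, where the SD of CYGB-OE exceeded its mean (coefficient of variation 114%). From the summed reads, 6 in WT and 430 in CYGB-OE, the ratio was 76.1 with a 95% interval of 34.7 to 209, which covers counting error only. Without CYGB-OE replicate 1 the ratio was 26.8 (11.9 to 74.7) and the fitted log2 fold change went from 6.18 (SE 1.24) to 4.64. Without WT replicate 1, which leaves 3 WT reads, the ratio was 108 (36.6 to 525).

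The windows around the annotated starts of both peptide genes are shown because these genes had the 2 largest ratios among the 6. The sequences are RefSeq's, GRCh38.p14, 250 bases before to 50 after a start, printed 5′ to 3′ on the gene's strand, with motif matches in capitals. The RefSeq table holds a pair of start windows for UTS2, where GENCODE annotates 3 starts. The first window, at chr1:7853442-7853741 on the minus strand, holds CACGTG at position -119 from the start, and CATGTG on the opposite strand at -129, printed as CACATG. The NTS window, at chr12:85874045-85874344 on the plus strand, holds none of the motifs searched.
UTS2: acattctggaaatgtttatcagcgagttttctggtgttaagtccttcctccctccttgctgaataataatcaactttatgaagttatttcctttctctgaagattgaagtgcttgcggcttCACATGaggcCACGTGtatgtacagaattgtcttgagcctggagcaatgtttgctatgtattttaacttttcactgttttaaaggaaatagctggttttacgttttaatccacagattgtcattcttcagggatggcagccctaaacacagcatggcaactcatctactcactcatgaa
NTS: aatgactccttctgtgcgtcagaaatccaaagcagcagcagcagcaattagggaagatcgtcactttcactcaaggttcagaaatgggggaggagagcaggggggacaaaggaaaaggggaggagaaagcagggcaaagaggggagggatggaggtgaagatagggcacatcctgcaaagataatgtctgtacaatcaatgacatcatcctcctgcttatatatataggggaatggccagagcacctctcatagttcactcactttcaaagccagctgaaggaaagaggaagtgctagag

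Each motif was searched on both strands, and its share is that of 35116 windows of the same length. The AP-1 site, spelled TGANTCA, was present in 7.71% of windows. The cyclic AMP response element, spelled TGACGTCA, was present in 1.85%. An E-box of the MYC and MITF kind, spelled CACGTG, was present in 7.26%. The other E-box, spelled CATGTG, was present in 11.1%. The share of windows was 34.6% for the box spelled CCAAT, which many housekeeping promoters hold. It was 11.5% for the TATA box, spelled TATAAA here. The GC box, spelled GGGCGG, was present in 45% and the REST element in 0.0683%. None of these motifs contains another, and the AP-1 site, the cyclic AMP response element and the first E-box read alike on both strands. The second UTS2 window, at chr1:7853016-7853315, had CCAAT at position -87 and TATAAA 3 times, between -219 and -201. A match describes these letters only and is no sign of binding. No motif in the NTS window means only that these letters are not in those 300 bases.

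NPTX2 encodes neuronal pentraxin 2, a secreted protein that gathers AMPA-type glutamate receptors at synapses and whose transcript is induced by activity in neurons. NPTX2 (ENSG00000106236, protein coding) lies on the plus strand at chr7:98617297-98629868. It had 403, 575 and 428 reads in WT and 1538, 1352 and 1728 in CYGB-OE. Normalised counts were 443, 454 and 455 in WT and 1641, 1510 and 1570 in CYGB-OE. NPTX2 varied least of the 6 genes within either group, with coefficients of variation of 1.47% and 4.16%. The means of 451 ± 6.63 and 1574 ± 65.5 gave a ratio of 3.49 and a fitted log2 fold change of 1.80 (SE 0.10). CYGB-OE replicate 1 was not apart here, at 1.07 times the mean of replicates 2 and 3.

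The NPTX2 start is shown for its contrast with the peptide genes: 74.3% of its bases were G or C, above 89.0% of all windows, and it held 39 CpG dinucleotides. It lies at chr7:98617035-98617334 on the plus strand. The capitals mark CCAAT at position -84 and 5 copies of GGGCGG on the opposite strand, printed as CCGCCC, between -165 and -42. The median window had 58.7% G or C and 14 CpG.
NPTX2: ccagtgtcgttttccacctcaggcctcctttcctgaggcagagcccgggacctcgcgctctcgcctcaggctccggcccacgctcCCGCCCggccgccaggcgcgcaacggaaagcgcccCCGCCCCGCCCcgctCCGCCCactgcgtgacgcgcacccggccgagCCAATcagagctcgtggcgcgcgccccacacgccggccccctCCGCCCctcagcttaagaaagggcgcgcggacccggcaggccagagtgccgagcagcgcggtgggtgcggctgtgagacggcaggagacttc

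SLITRK6 encodes a leucine-rich repeat membrane protein of a family that shapes neurite growth and synapses, and it is needed for innervation of the inner ear. SLITRK6 (ENSG00000184564, protein coding) lies on the minus strand at chr13:85792787-85806683. It had 806, 1224 and 825 reads in WT and 4008, 1974 and 2417 in CYGB-OE. Normalised counts were 886, 967 and 877 in WT and 4275, 2204 and 2197 in CYGB-OE. CYGB-OE replicate 1 was again the highest, at 1.94 times the mean of the other 2. The means were 910 ± 49.8 and 2892 ± 1198, a ratio of 3.18, and the fitted log2 fold change was 1.67 (SE 0.27). Without CYGB-OE replicate 1 it was 1.27, and the ratio of means was 2.42.

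The SLITRK6 window is shown because it was the only one of the 6 windows searched that held TGANTCA, as TGAGTCA at position -20. It lies at chr13:85799370-85799669 on the minus strand, inside the gene's full annotated span, and 38.7% of its bases were G or C.
SLITRK6: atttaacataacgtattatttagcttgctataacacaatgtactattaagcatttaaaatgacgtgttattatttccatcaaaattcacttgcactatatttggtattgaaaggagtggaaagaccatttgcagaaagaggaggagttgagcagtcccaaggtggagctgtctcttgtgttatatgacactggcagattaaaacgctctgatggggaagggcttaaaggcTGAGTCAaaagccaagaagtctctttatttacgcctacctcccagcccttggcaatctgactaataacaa

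VAT1L encodes a relative of the vesicle amine transport protein VAT1 with a quinone oxidoreductase-like fold, and its function is little known. VAT1L (ENSG00000171724, protein coding) spans chr16:77788530-77980107 on the plus strand, 191578 bases with 4137 exonic bases. It had 682, 1051 and 711 reads in WT and 2063, 2346 and 2886 in CYGB-OE. Normalised counts were 750, 831 and 756 in WT and 2201, 2620 and 2623 in CYGB-OE. CYGB-OE replicate 1 was the lowest of its group here, at 0.840 times the mean of the others. The means were 779 ± 45.0 and 2481 ± 243, a ratio of 3.19, with a fitted log2 fold change of 1.67 (SE 0.11). Its start window had 60.0% G or C, 19 CpG and GGGCGG once, at position -88.

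NEFL encodes the light chain of neurofilaments, the intermediate filaments that set the calibre of axons. NEFL (ENSG00000277586, protein coding) lies on the minus strand at chr8:24950955-24957110. It had 659, 1032 and 725 reads in WT and 2969, 1841 and 2403 in CYGB-OE. Normalised counts were 725, 816 and 771 in WT and 3167, 2056 and 2184 in CYGB-OE. CYGB-OE replicate 1 was the highest, at 1.49 times the mean of the other 2, and the lowest CYGB-OE library was 2.52 times the highest WT library. The means were 770 ± 45.5 and 2469 ± 608, a ratio of 3.21, with a fitted log2 fold change of 1.68 (SE 0.17) and 1.46 without CYGB-OE replicate 1. An antisense gene, AC107373.2, overlaps 490 exonic bases, or 11.3% of the exonic length of NEFL, and was not among the features analysed here.

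**Figure D2:**
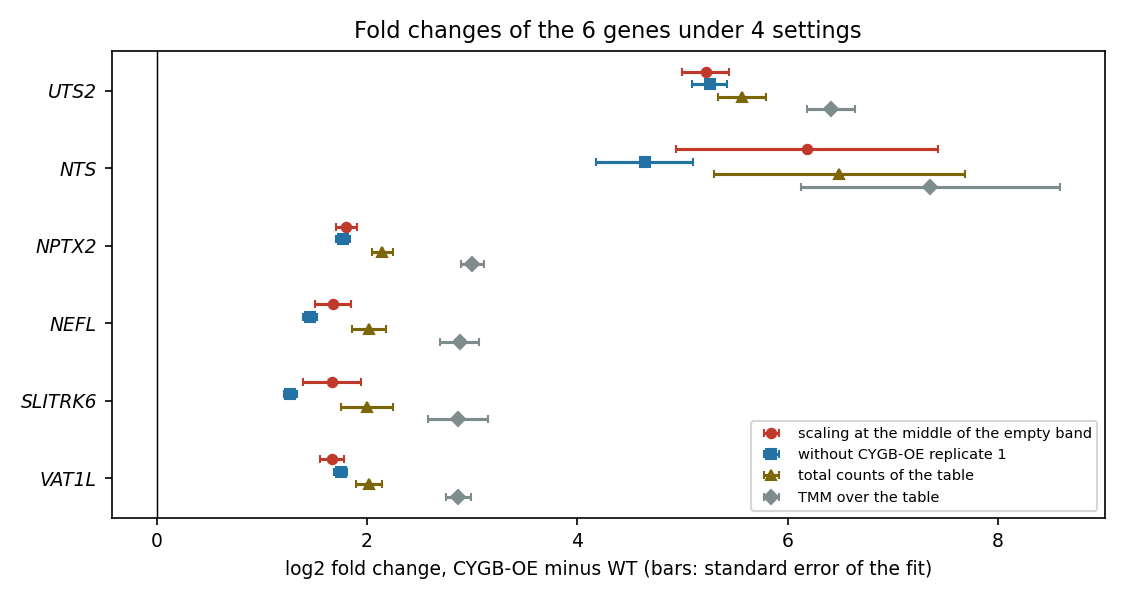
Fitted log2 fold change (CYGB-OE over WT) of the 6 genes with bars for its approximate standard error, derived from the F statistic. Values are under the reported scaling, without CYGB-OE replicate 1, with total counts of the table and with TMM over the table. NTS moves from 6.18 to 4.64 without CYGB-OE replicate 1.

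By ratios of group means, the 6 genes thus fell into a pair, UTS2 at 38.4 and NTS at 72.6, and 4 genes between 3.18 and 3.49. Without CYGB-OE replicate 1 these ratios were 39.8 for UTS2 and 24.7 for NTS, so the order of the pair reversed, and 2.42 to 3.42 for the other 4 genes. The direction of each was fixed by the selection, so the 13 alternative settings show only how far the fitted log2 fold change moved. UTS2 ranged from 5.05 to 6.42, NTS from 4.64 to 7.38 (4.64 to 6.66 when 1 library at a time was left out) and NPTX2 from 1.77 to 3.01. NEFL ranged from 1.46 to 2.89, SLITRK6 from 1.27 to 2.88 and VAT1L from 1.63 to 2.88. The upper ends come from scalings that move the median feature: the median shift was 1.20 with TMM over the table, 1.20 with DESeq2 size factors and 0.34 with total counts (log2). TMM over the table and DESeq2 size factors take most features as unchanged, but the table holds none with ratios in the empty stretch. A call lost under TMM, as given below, therefore marks dependence on the choice of scaling.

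Levels of different genes were compared as normalised counts per kilobase of exon, which corrects for length but not for isoform. In WT the order of level was SLITRK6 at 203 ± 11.1, VAT1L at 188 ± 10.9, NEFL at 178 ± 10.5, NPTX2 at 149 ± 2.20, UTS2 at 10.8 ± 3.70 and NTS at 1.33 ± 0.807 (SD, n = 3). The ranges of SLITRK6 and VAT1L over the libraries overlapped, as did those of VAT1L and NEFL, whereas the other neighbours in that order did not. Within each WT library taken alone, the order of the genes was the same. The 4 genes at the top were thus expressed in WT cells, and UTS2 and NTS were low there. In CYGB-OE the order of level was unchanged, with SLITRK6 at 646 ± 268, VAT1L at 600 ± 58.7, NEFL at 570 ± 140, NPTX2 at 522 ± 21.7, UTS2 at 416 ± 29.2 and NTS at 96.7 ± 111. The libraries of SLITRK6 (491 to 956), VAT1L (532 to 634), NEFL (475 to 732) and NPTX2 (501 to 544) overlapped, so their order is within the spread. UTS2 (385 to 443) lay below all 4, and NTS (30.2 to 224) lay below UTS2. Without CYGB-OE replicate 1 the mean levels per kilobase were 634 for VAT1L, 511 for NPTX2, 492 for SLITRK6, 490 for NEFL, 431 for UTS2 and 32.9 for NTS, so SLITRK6 was no longer first. This setting was chosen after seeing the data.

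NTS and UTS2 moved furthest of the 6 genes within the ranking of protein-coding features, where they also started lowest. The ranks are a description only, since genes that start high have less room to climb. The same values also selected the genes, and most tested features fell. The ranking covers the 1656 tested protein-coding features of the table, a selection, and not all genes expressed in the cells. The WT level per kilobase of UTS2 was above 26.2% of them, and its CYGB-OE level was above 91.6%. For NTS the shares were 2.84% and 76.3%, and the second was 59.0% without CYGB-OE replicate 1, which for UTS2 gave 92.5%. NPTX2, NEFL, SLITRK6 and VAT1L were above 74.3% to 79.6% in WT and above 93.2% to 94.7% in CYGB-OE.

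**Figure D3:**
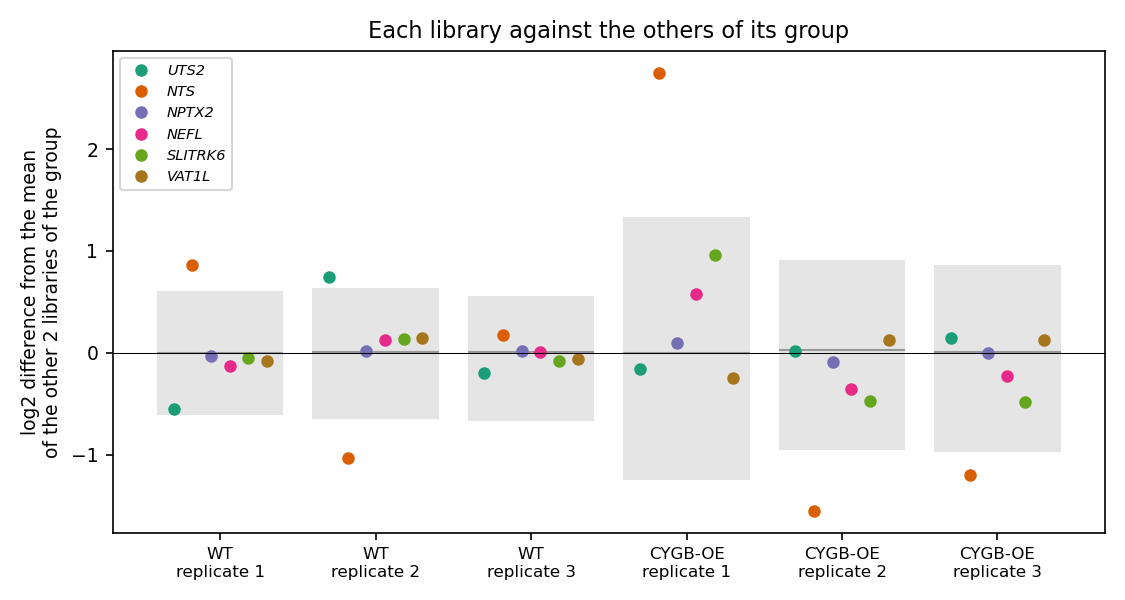
Log2 normalised count of each gene in a library minus the mean of the other 2 libraries of its group. Grey boxes span the 5th to the 95th percentile over the 2468 tested features with a line at their median, and NTS in CYGB-OE replicate 1 lies at 2.75, outside its box.

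CYGB-OE replicate 1 split the 6 genes. Its log2 deviation from the mean of the other 2 CYGB-OE libraries was 2.75 for NTS, 0.96 for SLITRK6 and 0.58 for NEFL, and it was 0.09 for NPTX2, -0.16 for UTS2 and -0.25 for VAT1L. Over all tested features the 5th and 95th percentiles in that library were -1.24 and 1.32. The NTS deviation was above that of 99.4% of tested features, and the SLITRK6 deviation above 90.4%. CYGB, counted over all reads on the gene, had 24020, 23160 and 23871 normalised counts in replicates 1 to 3, a spread far smaller than that of NTS or SLITRK6. Whether the CYGB level bears on the values of these genes was not tested. In WT the deviations of NPTX2, NEFL, SLITRK6 and VAT1L lay between -0.13 and 0.14, whereas UTS2 ran from -0.55 to 0.75 and NTS from -1.03 to 0.86. In WT replicate 2 both were outside the 5th to 95th percentile of tested features (-0.64 to 0.62). NTS was also outside it in WT replicate 1 and in all 3 CYGB-OE libraries, at -1.55 and -1.20 in replicates 2 and 3. The deviations of a group cancel in sum, so those of CYGB-OE replicates 2 and 3 mirror that of replicate 1. The WT deviations of NTS rest on 3, 1 and 2 reads.

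Profiles over the 6 libraries were compared by Euclidean distance between centred log2(normalised count + 1) values among 1414 candidate features with a mean of at least 50. The nearest to UTS2 was MMP1, a collagenase gene, at 1.26, then MMP3 and ITGA8. The nearest to NTS was MMP10, another matrix metalloproteinase gene, at 1.30, then AC004520.1 and DOK3. NPTX2 was nearest to DLEU2, a non-coding RNA, at 0.164, then MAP1A and NCOA5. NEFL was nearest to ATF5, a stress-linked transcription factor gene, at 0.186, then IRS1 and GPX3. SLITRK6 was nearest to DKK1, a secreted Wnt inhibitor gene, at 0.199, then CCNE2, followed by NEFL at 0.332. VAT1L was nearest to RAET1E, a ligand gene of a natural killer cell receptor, at 0.177, then LIN28B and MEIS2. The distances include the difference between the groups that selected the 6 genes. Most of these neighbours changed without CYGB-OE replicate 1. Then 2 of the 3 neighbours of UTS2 (ITGA8 and MMP1) and 1 of NTS (AC004520.1) were again among the nearest, and 0 of the 3 of each other gene. No other library was left out here, so whether the change is particular to that replicate was not tested. Between members, NEFL to SLITRK6 was 0.332, NPTX2 to VAT1L 0.343 and UTS2 to NTS 2.84, and each peptide gene was between 4.26 and 4.96 from the other 4 genes. Without CYGB-OE replicate 1 the distances were 0.227 for NEFL to SLITRK6, 0.112 for NPTX2 to VAT1L and 1.97 for UTS2 to NTS. From the other 4 genes, NTS was then between 2.79 and 3.33 and UTS2 between 3.91 and 4.43. Distances over fewer libraries tend to be smaller by construction, so their drop is not read as closer profiles.

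The 6 genes lie on 6 chromosomes. Within 500 kb of each, the table held AL034417.4 near UTS2, MGAT4C near NTS, TMEM130 near NPTX2 and no gene near NEFL, SLITRK6 or VAT1L. These neighbours were named for position after their values were seen. AL034417.4 rose by 1.48 on the log2 scale (SE 0.30, adjusted p = 0.00146). MGAT4C fell by 2.65 (SE 0.33, adjusted p = 8.81e-05) and TMEM130 fell by 1.46 (SE 0.23, adjusted p = 0.000365), although under TMM over the table TMEM130 was at -0.26 and not called. These are edgeR quasi-likelihood values with Benjamini-Hochberg adjustment.

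**Figure D4:**
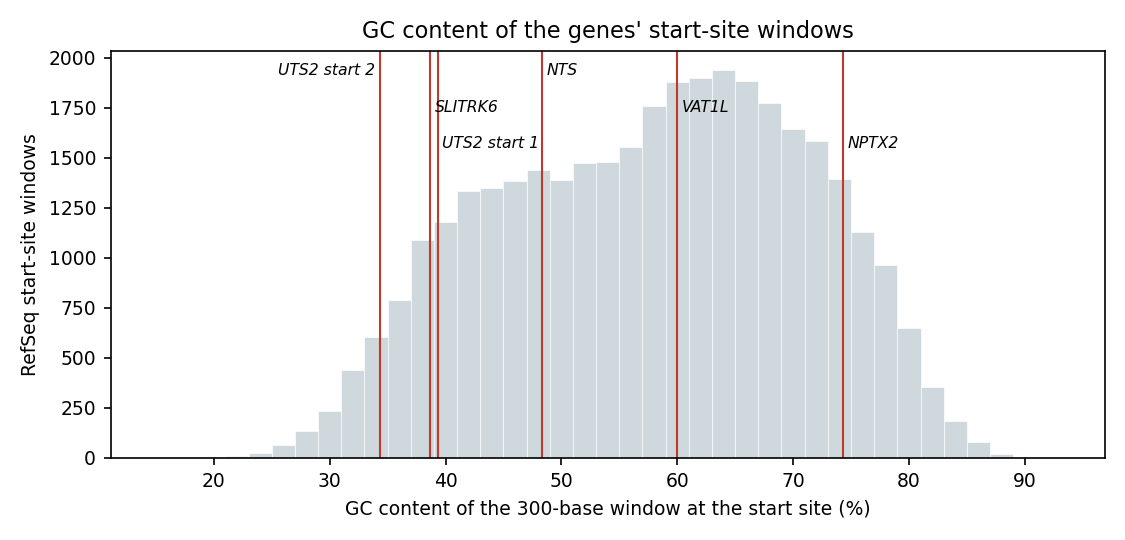
GC percent of the 300-base windows around the annotated starts of the 5 genes searched (NEFL was left out), beside the distribution over 35116 windows. NPTX2 at 74.3% lies to the right of the median of 58.7%, and UTS2 at 39.3% and 34.3%, SLITRK6 at 38.7% and NTS at 48.3% lie to its left.

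Start windows of 5 of the 6 genes were searched, 6 windows in all, as plotted by GC percent. NEFL was left out of this search, so nothing is said of its start. Windows of UTS2, NTS and SLITRK6 were poorer in G and C than the median, VAT1L was near it and NPTX2 was above it. CpG counts followed: 4 and 1 for UTS2, 2 for NTS, 4 for SLITRK6, 19 for VAT1L and 39 for NPTX2. The REST element was in none of the 6 windows.

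The counts of listed genes below stand beside those over all tested features, of which 28.9% were called higher and 70.9% lower with a median of -1.29, and nothing is called particular to a list. Beside UTS2 and NTS, the list of neuropeptide and peptide hormone precursors (71 genes) had 8 others in the table, 7 tested, of which 3 rose and 4 fell (median log2 fold change -1.77). GAL, the galanin precursor, went from 175 ± 9.96 to 370 ± 87.3 and rose by 1.08 (adjusted p = 0.000640). CHGB, a granin of secretory granules, rose by 1.72 (adjusted p = 0.000235). ADM, ADM2 and UCN, precursors of adrenomedullins and urocortin, fell, with log2 fold changes of -1.77, -2.05 and -1.94, and under TMM over the table none of the 4 that fell was called.

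Of 76 peptide receptor genes, 11 were in the table and 10 tested, with 2 that rose and 8 that fell (median -1.52; of the 8, 1 was still called under TMM over the table). NTSR1, the high-affinity neurotensin receptor, had 261, 211 and 198 normalised counts in WT and 582, 463 and 442 in CYGB-OE. All CYGB-OE libraries lay above all WT libraries, but the groups also did not overlap in 2732 of all 2778 features. NTSR1 rose by 1.15 (SE 0.17, edgeR adjusted p = 0.000217). The urotensin receptor gene UTS2R was not among the features analysed here. SORL1, a sortilin-family receptor gene, went from 52.0 ± 13.9 to 17.8 ± 6.57 and fell by 1.54 (adjusted p = 0.00281), but was at -0.34 and not called under TMM. VIPR1, a receptor for vasoactive intestinal peptide, rose by 1.28 (adjusted p = 0.0260), a call lost without WT replicate 1 (adjusted p = 0.0764) or 2 (0.0560) and without replicate 2 (0.0772) or 3 (0.0806) of CYGB-OE. EDNRB, RAMP1 and NPR1 fell, with log2 fold changes of -1.50, -1.22 and -1.39, and none of these was called under TMM.

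Of 37 peptide processing, granule and peptidase genes, 8 were in the table and all 7 tested fell (median -1.32), of which 5 were below 0 and 1 was called under TMM over the table. CPE, the carboxypeptidase that trims peptide precursors, went from 1458 ± 8.67 to 642 ± 75.5 and fell by 1.18, but was at 0.02 and not called under TMM. MME, the peptidase neprilysin, fell by 1.93 and was still called under TMM, at -0.74. CADPS2, QPCT, CPM and PCSK4 fell, with values of -1.50, -1.18, -1.32 and -1.63, and none of them was called under TMM, where QPCT was at 0.02.

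Around NPTX2, the list of neuronal pentraxins, cerebellins and ionotropic glutamate receptors (36 genes) had 5 others in the table, and all 4 tested fell (median -1.31; none was called under TMM, where all 4 were below 0). NPTXR, the membrane-anchored pentraxin that assembles with NPTX2, went from 546 ± 20.7 to 222 ± 51.4 and fell by 1.30 (adjusted p = 0.000162). GRIK2, CBLN3 and GRIN2D fell, with values of -1.26, -1.32 and -2.93. GRIN3A was not tested, with 0 reads in WT and 17 in CYGB-OE. NPTX2 was the only tested gene of the list that was higher, and its own direction was fixed by its selection.

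Around NEFL, the intermediate filament and neuronal cytoskeleton list (43 genes) had 7 others in the table, of which 4 rose and 3 fell (median 1.01; under TMM 4 rose and none fell). MAP1A, a microtubule-associated protein gene, went from 245 ± 11.7 to 855 ± 124 and rose by 1.80 (adjusted p = 8.76e-06). TUBA1A, a tubulin gene, rose by 1.01, GAP43, a growth cone gene, by 1.44, and DCLK2, a doublecortin-like kinase gene, by 1.04. TUBB2B fell by 1.36, at -0.16 and not called under TMM. NEFM and NEFH, which co-assemble with NEFL, were not among the features analysed here.

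Around SLITRK6, the synaptic adhesion list (71 genes) had 18 others in the table and 17 tested, with 2 that rose and 15 that fell (median -1.39; 6 of the 15 were called lower under TMM). FLRT3, another leucine-rich repeat protein gene, went from 630 ± 61.2 to 1709 ± 279 and rose by 1.44 (adjusted p = 3.13e-05). CNTN1, a contactin gene, fell by 2.18 and was still called under TMM, at -0.98. CADM4, CNTNAP1 and CADM1 fell, with values of -1.03, -1.31 and -1.09, and none of them was called under TMM, where CADM4 and CADM1 were at 0.17 and 0.11 and CNTNAP1 at -0.11. No other SLITRK gene was among the features analysed here, and of the 10 VAT1 and quinone oxidoreductase relatives only VAT1L was.

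Marker lists of cell types gave these values beside the 6 genes. Of 18 neuron markers 4 were in the table, with summed normalised counts of 177 to 216 in WT and 329 to 471 in CYGB-OE: GAP43 and CHGB rose and MAP2 fell by 1.15 (0.04 under TMM). ELAVL4 was not tested, with 16.5, 11.9 and 8.50 normalised counts in WT and 1.07, 3.35 and 2.73 in CYGB-OE, lower without overlap. Of 18 melanocyte markers 4 were in the table, summing to 2634 to 2839 and 909 to 1118. The 3 tested fell (median -1.50, beside -1.29 for all tested features) with none called under TMM, and DCT had no reads in CYGB-OE. Over all 8 marker lists, 25 of 111 genes were in the table and 22 tested, of which 6 rose and 16 fell, near the 28.9% and 70.9% of all tested features. Markers of other cell types that rose included COL1A2, a fibroblast collagen gene, by 5.91 (1.76 ± 1.61 to 121 ± 74.2), LYZ of leukocytes by 2.49 and KRT14 of keratinocytes by 1.88. On the same lists ACTA2 and FBLN1 of fibroblasts and ITGAM of leukocytes fell, with values of -2.01, -1.06 and -5.43. Under TMM over the table FBLN1 was at 0.14 and not called. All 4 neural crest and all 3 endothelial markers tested fell, and of 3 Schwann cell and glia markers 1 rose and 2 fell. These were named after their values were seen. Their part in the values of the 6 genes was not tested.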

How the data were processed

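Poly(A) RNA-seq of 3 WT and 3 CYGB-OE A375 libraries was analysed from the authors' deposited table of raw read counts per feature. Per the submitters' processing notes, Trimmomatic 0.36, STAR 2.5.2b and featureCounts of Subread 1.5.2 were used on GRCh38; not given in the sources used here are the strand setting and the rule by which features entered the table. Of the 2778 features, 163 were unnamed loci (1.25% to 1.64% of counts per library), which were kept in the scaling and tests as features of their own and are not named; the other identifiers were matched to GENCODE 29 (2611 found).

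Counts were scaled by TMM within each group, and CYGB-OE was then placed so that the middle of the gap in log2 ratios, 0.345, was no change. edgeR 4.0.16 in R 4.3.3 (filterByExpr with a minimum count of 10, quasi-likelihood test, Benjamini-Hochberg over all tested features, threshold 0.05) gave 713 features called higher and 1749 lower. The SE printed with an edgeR log2 fold change is approximate: the absolute log2 fold change divided by the square root of the quasi-likelihood F statistic. Levels per kilobase used merged exon lengths.

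The 6 genes, the 12 pathway lists and the 8 marker lists were chosen with earlier results of these data known. Besides the 6 genes and CYGB, the text names the 3 nearest profiles of each gene and, from each pathway list, all genes in the table or the 6 with the highest mean; 1 such gene is not reported here. Alternatives were TMM over the table, DESeq2 1.42.0 size factors, total counts, the DESeq2 and limma-voom 3.58.1 tests, no filter, adjustment over all annotated genes, a replicate block, and leaving out each library; levels per kilobase and nearest profiles without CYGB-OE replicate 1 were added after seeing the data.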

Additional observations from a re-analysis of the deposited data

How the results depend on the processing

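The count of features called lower depended on the scaling between groups: it was 1749 as reported, 480 with TMM over the table and 476 with DESeq2 size factors, since both of those shift every fold change upward. Both take most features as unchanged, although the table holds none with ratios in the empty stretch. The reported scaling instead assumes that this stretch is centred on no change, which was not tested. Leaving out 1 library at a time gave 708 to 751 features higher and 1761 to 1840 lower, and adjusting over all 58735 annotated genes gave 480 and 1341. For the 6 genes, whose direction the selection fixed, 17 of the alternative values moved by more than 1 SD between replicates and 61 did not. With the replicate block, 712 features were higher and 1750 lower. The replicate numbers do not pair the libraries: correlations of same-numbered deviations were -0.0127, -0.0689 and -0.0005, and not every library correlated best with its own number. The low WT counts of NTS limit its ratio.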

Other observations

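Over all tested features 28.9% were called higher and 70.9% lower, and the counts of the other neuronal lists stand beside these shares. Of 69 axon guidance genes, 19 were in the table and 17 tested, with 5 that rose and 12 that fell (median log2 fold change -1.20, and 0.00 under TMM over the table, where 1 of the 12 was called lower). NRP1, a semaphorin co-receptor gene, went from 1382 ± 101 to 2975 ± 783 and rose by 1.11 (edgeR adjusted p = 0.000354), and EPHA7, an ephrin receptor gene, rose by 1.07. PLXNB1, EFNA1 and SEMA4G fell, with values of -1.21, -1.63 and -1.62, and EFNB3 fell by 1.20. Of these 4, only SEMA4G was called under TMM, with PLXNB1 at -0.01, EFNA1 at -0.43 and EFNB3 at 0.00.

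Of 21 neurotrophin and receptor genes, 8 were in the table and 6 tested, with 1 that rose and 5 that fell (3 called lower under TMM). CNTF rose by 1.97. GFRA1, a GDNF co-receptor gene, went from 88.7 ± 2.42 to 6.49 ± 0.19 and fell by 3.75, and NRTN fell by 2.15. LIF and GDNF fell, with values of -1.26 and -1.12, and neither was called under TMM, where they were at -0.05 and 0.08. Without CYGB-OE replicate 1, LIF was at -1.82. Of 41 synaptic vesicle genes, 6 were in the table and all 5 tested fell (2 called lower under TMM). Their values were -1.26 for DOC2A (-0.06 under TMM), -1.03 for RIMS3 (0.16), -3.42 for SNAP91, -1.89 for RIMS2 and -3.14 for SLC17A7, and SNAP91 and SLC17A7 were those called under TMM. ERC2 was not tested.

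Of 32 REST complex and proneural factor genes, ISL1 rose by 1.10, and RCOR2 and NEUROG2 fell, with values of -1.36 and -1.57 and neither called under TMM. Of 30 immediate early genes only JUNB was in the table. It fell by 1.57 and was not called under TMM.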
